A study of Mus musculus with 18 samples.

Results

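Leukocyte miRNAs were profiled in adrenal glands and neuroblastoma tumors of transgenic mice, as a measure of immune cell content. The members are 8 mature miRNAs known for high levels in white blood cells: mmu-miR-142a-3p, mmu-miR-142a-5p, mmu-miR-223-3p, mmu-miR-150-5p, mmu-miR-155-5p, mmu-miR-146a-5p, mmu-miR-146b-5p and mmu-miR-342-3p. The prefix mmu, which stands for the mouse, is left out in the following. The rule names them and uses no measured value, although the list was drawn up with earlier results of these data known. The deposited table holds 1966 mature miRNAs. All 8 members passed the filter on low values, at least 1 CPM in at least 3 libraries, as did 726 miRNAs in all.

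Small RNA was sequenced in 18 libraries. AG are 3 adrenal glands of wildtype mice, with the genotype CRE -. TI are 7 tumors of R26 IGF2BP1 mice, 6 with the genotype IGF2BP1 +/+, CRE + and 1 with IGF2BP1 +/-, CRE +. TIM are 8 tumors of R26 IGF2BP1/MYCN mice, labelled IMP1/MYCN, CRE +, where IMP1 is another name of IGF2BP1. IGF2BP1 is an RNA-binding protein and MYCN a transcription factor, both oncogenes in neuroblastoma. The transgenes sit in the Rosa26 locus behind a stop cassette, which is removed by a Cre recombinase under the control of Dbh, so that they are switched on in adrenal glands and peripheral nerves. The source was given as tumor adrenal gland for 1 TI and 2 TIM libraries, as tumor spine for 1 TIM library and as tumor for the rest. The age of the animals is not given in the labels. The paper reports a shorter median survival for R26 IGF2BP1/MYCN mice than for homozygous R26 IGF2BP1 mice. An effect of age on TIM against TI was not tested. The columns of the table name the group but not the mouse. Libraries are therefore numbered here by their order within a group. Whether any tumors came from the same mouse is not known from the labels, so the p-values measure the spread between these libraries. The paper reports more tumors than animals for R26 IGF2BP1/MYCN mice, so that some TIM libraries could share a mouse.

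miRNAs are short RNAs that are cut from a hairpin precursor and guide Argonaute proteins to partly complementary messenger RNAs, which are then repressed. Target choice depends mostly on the seed, bases 2 to 8 from the 5' end. Several miRNAs are made mainly in blood cells, so that their level in a piece of tissue follows, among other things, how many leukocytes it holds. miR-142a is made in nearly all hematopoietic lineages, miR-223 in granulocytes and monocytes, and miR-150 in mature lymphocytes. miR-155 and the miR-146 miRNAs are induced in activated immune cells, miR-146a as part of a negative feedback on NF-kB signaling, and they are also made by other cell types.

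The mature sequences show which members share a seed and so could be read as 1 family. Those of 7 members were found in RefSeq (GRCm38.p6, the assembly also named mm10), with the seed in capitals:
miR-142a-3p: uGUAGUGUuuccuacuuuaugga
miR-142a-5p: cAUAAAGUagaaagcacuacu
miR-223-3p: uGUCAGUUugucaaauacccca
miR-155-5p: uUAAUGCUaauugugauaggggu
miR-146a-5p: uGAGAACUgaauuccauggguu
miR-146b-5p: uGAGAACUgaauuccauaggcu
miR-342-3p: uCUCACACagaaaucgcacccgu

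miR-146a-5p and miR-146b-5p share the seed GAGAACU and 20 of their 22 bases. They differ by G18A and U21C, counted from the 5' end with the base of miR-146a-5p first, so that their reads can be told apart only at these 2 positions. The other members with a sequence here each have a seed of their own. miR-142a-5p and miR-142a-3p are the arms of 1 hairpin, Mir142 (chr11:87756864-87756927, plus strand), and thus share their source. The 8 members come from 7 hairpins. By GENCODE annotation, Mir142, Mir223 (chrX:96242817-96242926), Mir155 (chr16:84714140-84714204) and Mir146 (chr11:43374397-43374461, minus strand) lie in exons of long noncoding RNAs. Mir146b (chr19:46342762-46342870) lies in an intron of Mfsd13a and Mir342 (chr12:108658620-108658718) in an intron of Evl, which encodes an actin regulator. Mir150 (chr7:45121757-45121821) lies outside other genes. The hairpin coordinates are those of GRCm38.p6.

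Values are given in CPM as deposited, a library's reads scaled to a common total of miRNA reads and corrected by the authors with TMM factors. The libraries held between 11641696 and 23435621 reads on miRNAs, and 3 reads corresponded to 0.101 to 0.272 CPM. The members took between 0.0433% and 0.184% of the reads, with at least 27 reads for each member in each library. miR-148a-3p, a miRNA outside the list, took 4.19% to 6.94% of the reads in AG, 2.29% to 61.9% in TI and 6.53% to 44.2% in TIM, and TI library 5, at 2.29%, stood apart from the other TI libraries. The labelled tissues were checked against neuronal and neuroendocrine miRNAs. miR-7a-5p and miR-375-3p were present in all groups (at least 24302 and 405 CPM in each library), and miR-124-3p, miR-9-5p and miR-9-3p were higher in TI and TIM than in AG (adjusted p at most 8.54e-05 from limma). The neuroendocrine miR-375-3p had medians of 26553, 5166 and 7471 CPM in AG, TI and TIM, with 6 of 7 TI and 4 of 8 TIM libraries below all AG libraries (log2 fold changes -1.75 and -2.27, adjusted p = 0.197 and 0.0944 from limma, not passed).

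miR-142a is the broadest marker of blood cells among the members. Its 5p arm fell in both tumor types and its 3p arm in TIM. miR-142a-3p reached 72.4, 40.7 and 54.5 CPM in the 3 AG libraries. In TI it ranged from 6.99 to 58.8 CPM with a median of 25.9, and in TIM from 13.8 to 39.4 CPM with a median of 17.0. All 8 TIM libraries lay below all AG libraries, as did 5 of the 7 TI libraries, whereas TI libraries 2 and 7 lay within the AG range. Relative to AG, limma gave log2 fold changes on the log2(CPM + 1) scale of -1.43 ± 0.54 for TIM (SE, adjusted p = 0.0343) and -1.17 ± 0.55 for TI (SE, adjusted p = 0.0766). In TIM the call was lost in 5 of 11 fits that left out a single library, with adjusted p-values from 0.0243 to 0.147, so that it rests on each of the AG libraries and on TIM libraries 1 and 4. It was also lost with totals that omit miR-148a-3p (adjusted p = 0.186), when the TMM factor was taken out (adjusted p = 0.120) and when no filter was used (adjusted p = 0.0791). Here and below, totals that omit miR-148a-3p also have no TMM factor. In TI the value passed without TI library 2 (adjusted p = 0.0361) or TI library 7 (adjusted p = 0.0345). In bulk tissue, fewer cells of a type and less RNA per cell cannot be told apart, for this and for every other member.

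The other arm of the hairpin, miR-142a-5p, was the more abundant one. It stood at 285.8, 219.6 and 372.2 CPM in AG, at 34.3 to 200.6 CPM in TI (median 119) and at 37.0 to 153.7 CPM in TIM (median 74.2). All 15 tumor libraries were below all AG libraries. Its log2 fold change by limma was -1.72 ± 0.62 for TI (SE, adjusted p = 0.0251) and -1.88 ± 0.61 for TIM (SE, adjusted p = 0.0159), and both passed. Both calls were lost when AG library 1 or AG library 3 was left out, with adjusted p-values up to 0.0985 in TI and 0.0741 in TIM. Totals that omit miR-148a-3p also ended both (adjusted p = 0.0884 in TI and 0.0672 in TIM by limma). The call in TI was lost without a filter as well (adjusted p = 0.0684).

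miR-223-3p, made in granulocytes and monocytes, had a narrow range in AG, with the highest library 1.21-fold over the lowest. Its levels of 27.8, 23.0 and 24.2 CPM in AG compared with 3.90 to 20.03 CPM in TI (median 11.8) and 5.997 to 12.4 CPM in TIM (median 7.90). Neither tumor group overlapped with AG. By limma it fell by 1.26 ± 0.38 on the log2 scale in TI (SE, adjusted p = 0.0099) and by 1.45 ± 0.37 in TIM (SE, adjusted p = 0.0040). Both calls held whichever single library was left out, but the one in TI was lost with totals that omit miR-148a-3p (adjusted p = 0.0824).

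miR-150-5p, the miRNA of mature lymphocytes, showed the largest decrease of the 8 members. It was at 216.5, 130.9 and 146.1 CPM in AG. In TI it ranged from 2.63 to 61.8 CPM with a median of 6.25, where library 7 was at 61.8 CPM and the next at 14.3 CPM. In TIM it ranged from 4.07 to 26.3 CPM with a median of 9.22. No tumor library reached the AG range. It was 16.6-fold lower in TI by limma (log2 fold change -4.05 ± 0.73 SE, adjusted p = 0.0002) and 15.0-fold lower in TIM (-3.90 ± 0.71 SE, adjusted p = 0.0002). When single libraries were left out, the log2 fold change ran from -4.50 to -3.81 for TI and from -4.10 to -3.69 for TIM.

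The members that are induced in activated immune cells did not pass the test. miR-155-5p, the member with the lowest level in each AG library, was at 17.9, 12.5 and 11.98 CPM in AG, at 2.45 to 19.1 CPM in TI (median 7.24) and at 1.997 to 10.5 CPM in TIM (median 5.21). All 8 TIM libraries lay below AG, but in TI only 4 of 7 did and TI library 2 lay above. Its log2 fold change of -1.38 ± 0.57 for TIM missed the threshold (SE, adjusted p = 0.0504 by limma), and so did that of -0.92 ± 0.58 for TI (SE, adjusted p = 0.189 by limma). In TIM it passed with 5 of 10 other settings and without TIM library 1, 2 or 4, with an adjusted p down to 0.0230.

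miR-146a-5p was at 418.4, 227.0 and 231.9 CPM in AG. In TI it ranged from 127 to 1096 CPM with a median of 211, and library 2 was at 1096 CPM while the next was at 320.5 CPM. In TIM it ranged from 52.1 to 363 CPM with a median of 109, and 7 of 8 libraries lay below AG. By limma the log2 fold change was -0.16 ± 0.58 for TI (SE, adjusted p = 0.837) and -1.28 ± 0.57 for TIM (SE, adjusted p = 0.0687), and the value for TI turned positive with edgeR, with DESeq2 and with totals that omit miR-148a-3p. In TIM it passed without TIM library 2 (adjusted p = 0.0208) and with only AG and TIM in the model (adjusted p = 0.0466).

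miR-146b-5p, which has the same seed, was at 245.6, 289.5 and 249.4 CPM in AG, from 112 up to 468 CPM in TI (median 271) and from 107 up to 327 CPM in TIM (median 191). Libraries lay on both sides of AG, with 3 below and 2 above in TI and 5 below and 2 above in TIM. By limma the log2 fold change was -0.10 for TI (95% interval -0.97 to 0.76, adjusted p = 0.853) and -0.44 for TIM (95% interval -1.29 to 0.40, adjusted p = 0.374). With totals that omit miR-148a-3p both values turned positive (0.42 and 0.15).

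miR-342-3p went against the other members. It was at 46.3, 36.5 and 29.0 CPM in AG, at 143 to 608 CPM in TI (median 237) and at 66.4 to 232 CPM in TIM (median 151). All 15 tumor libraries lay above all AG libraries. It was 7.34-fold higher in TI by limma (log2 fold change 2.88 ± 0.43 SE, adjusted p = 2.1e-05) and 3.76-fold higher in TIM (1.91 ± 0.42 SE, adjusted p = 0.0011). Both calls held in every fit that left out a single library and in all 10 other settings.

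**Figure D1:**
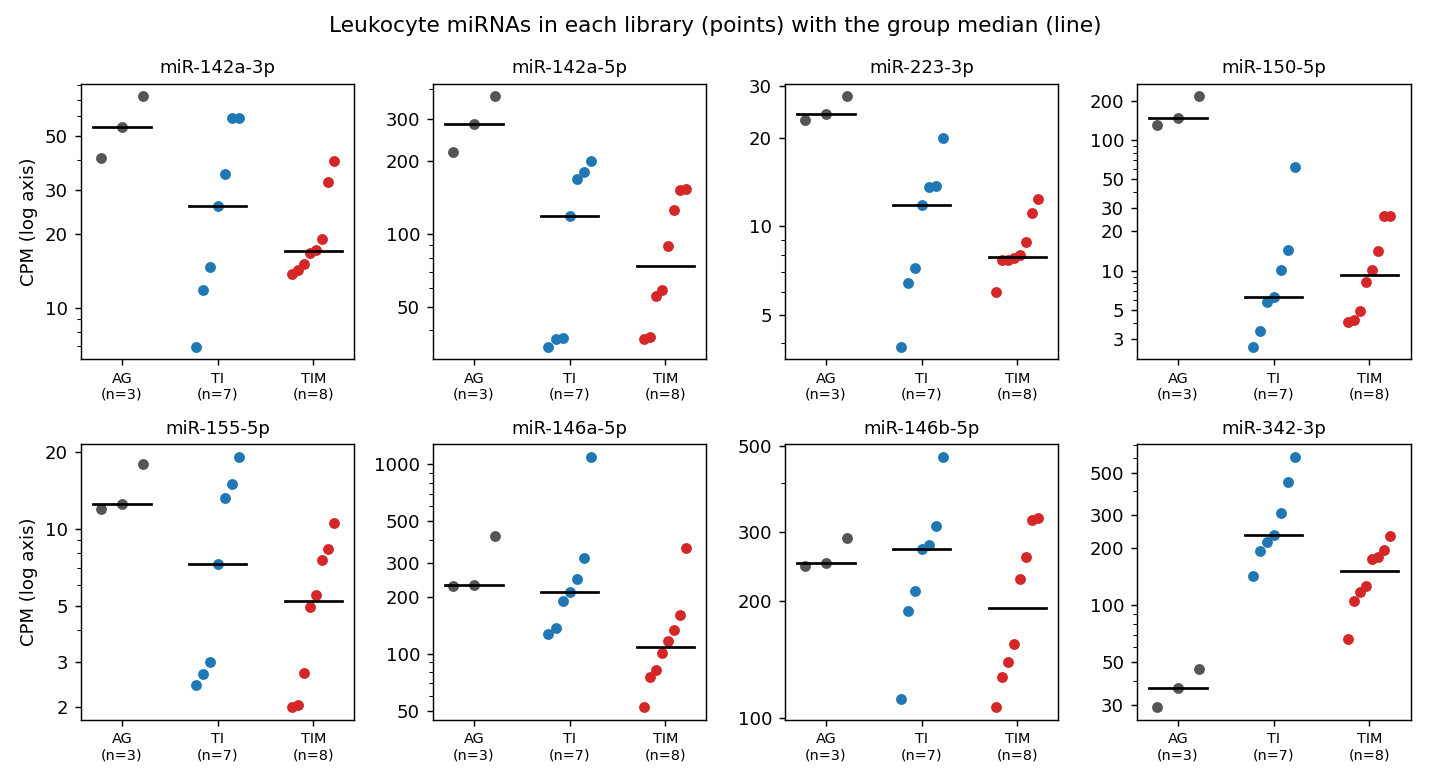
Level of each of the 8 leukocyte miRNAs in CPM (vertical log axis) in each library of AG (n = 3), TI (n = 7) and TIM (n = 8), with points for libraries and lines for group medians. miR-150-5p sits at 130.9 to 216.5 CPM in AG and at 61.8 CPM or less in all tumors, while miR-342-3p sits at 46.3 CPM or less in AG and at 66.4 CPM or more in all tumors.

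Counted over the list, 4 of 8 members passed in TI against AG (3 lower, 1 higher) and 5 of 8 in TIM against AG (4 lower, 1 higher). Of all 726 miRNAs tested, 55.8% passed in TI against AG (29.3% lower and 26.4% higher) and 51.4% in TIM against AG (25.9% lower and 25.5% higher), so that the members were called about as often as miRNAs in general. Of all miRNAs, 24.4% had all TI libraries below AG and 22% had all TIM libraries below AG, and this held for 3 and 5 of the members. In turn 22% and 21.1% had all TI or all TIM libraries above AG, and this held for 1 member in each. The median log2 fold change of the members was -1.04 in TI and -1.40 in TIM, beside -0.01 and 0.18 over all tested miRNAs, and 7 of 8 members had a negative value in each. TI and TIM were compared with the same 3 AG libraries, so the calls in both are not independent of each other.

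No member passed the test between TIM and TI by limma. The ranges of both tumor types overlapped for all 8, and 0 of 8 passed, against a background of 5.23% of all miRNAs (3.44% higher and 1.79% lower in TIM). At an unadjusted p under 0.05 there were 2 members, miR-146a-5p and miR-342-3p. For miR-146a-5p, the log2 difference TIM minus TI was -1.12 (95% interval -2.04 to -0.20, limma adjusted p = 0.117), and for miR-342-3p it was -0.96 (95% interval -1.63 to -0.29, limma adjusted p = 0.0688). Both passed with DESeq2 on the recovered reads (adjusted p = 0.0361 and 0.0281), and none passed with edgeR. Without TI library 5, miR-342-3p passed in limma (adjusted p = 0.0385). For miR-142a-3p the interval of the difference ran from -1.12 to 0.60, for miR-142a-5p from -1.14 to 0.81, for miR-223-3p from -0.79 to 0.41, for miR-150-5p from -0.996 to 1.29 and for miR-155-5p from -1.37 to 0.45. A p above the threshold does not show that these levels were equal.

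**Figure D2:**
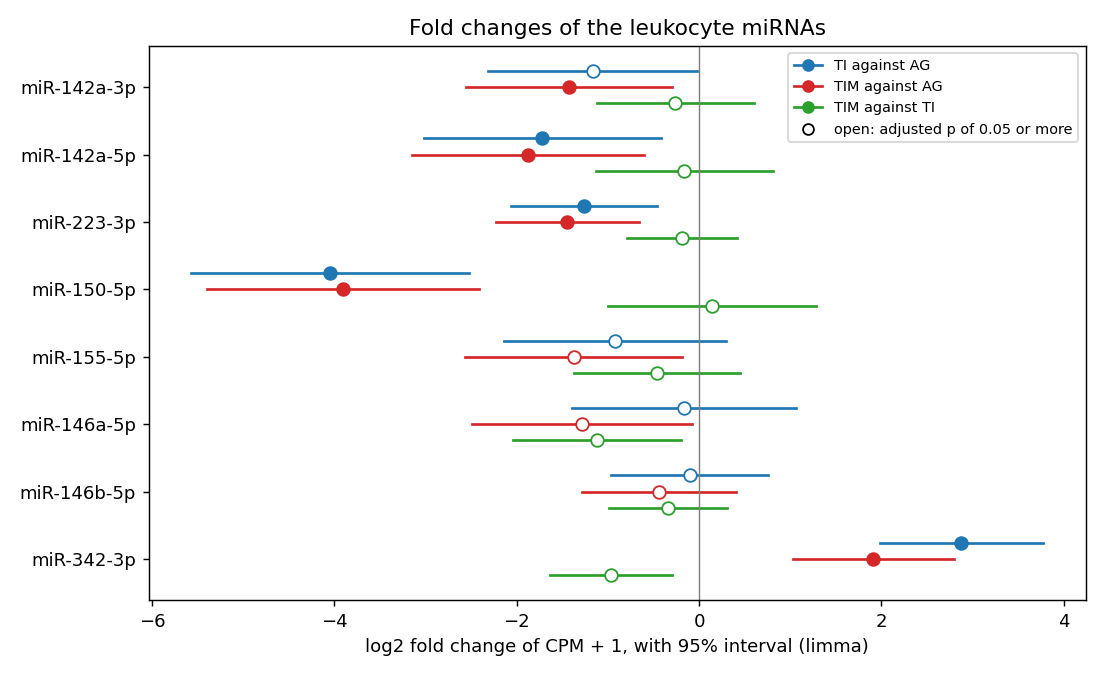
Log2 fold change of CPM + 1 (horizontal axis) of the 8 leukocyte miRNAs for TI against AG, TIM against AG and TIM against TI, with 95% intervals from limma and open points for an adjusted p of 0.05 or more. miR-150-5p lies at -4.05 and -3.90 and miR-342-3p at 2.88 and 1.91 against AG, while all points of TIM against TI are open.

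The other arms of the same hairpins give a reading that the list did not use, although both arms come from 1 precursor. Of the 6 other arms in the table, 3 passed the filter, and all 3 were called in both tumor types in the direction of their partner. Of all tested miRNAs, 55.8% were called in TI and 51.4% in TIM, so a count over so few arms says little. miR-223-5p was at 36.2, 26.2 and 25.2 CPM in AG, 2.90 to 21.4 CPM in TI and 3.94 to 16.3 CPM in TIM. By limma its log2 fold change was -1.96 for TI (adjusted p = 0.0046) and -1.44 for TIM (adjusted p = 0.0276). miR-342-5p was at 8.18, 7.18 and 6.76 CPM in AG, 13.2 to 37.9 CPM in TI and 14.6 to 30.3 CPM in TIM, and by limma its log2 fold change was 1.46 for TI (adjusted p = 0.0020) and 1.48 for TIM (adjusted p = 0.0016). Its log2 fold change between TIM and TI was 0.03, beside -0.96 for miR-342-3p. miR-150-3p was at 4.99, 2.61 and 4.16 CPM in AG (56 to 108 reads), and held 0 to 7 reads in TI and 0 to 20 reads in TIM. It passed the filter only through AG, where it was high, so its calls are no further reading. miR-155-3p, miR-146a-3p and miR-146b-3p were under the filter, with at most 1.14 CPM in any library.

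Ratios of members within a library do not depend on how the libraries were scaled. They show whether the members moved by a common factor. The ratio of miR-150-5p to miR-142a-3p was 2.68 to 3.22 in AG, but 0.222 to 1.05 in TI (median 0.287) and 0.221 to 1.72 in TIM (median 0.296). It was below all AG libraries in 7 of 7 TI and 8 of 8 TIM libraries. The difference in mean log2 ratio was -3.04 in TI (exact permutation test, two-sided p = 0.0167) and -2.59 in TIM (exact permutation test, two-sided p = 0.0121). These are the smallest p-values that 7 or 8 libraries against 3 allow when the smaller tail is doubled, and after adjustment over the 27 ratio tests both were 0.075, above the threshold.

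Other pairs showed the same separation. The ratio of miR-223-3p to miR-150-5p, a granulocyte and monocyte miRNA over a lymphocyte miRNA, had a median of 0.166 in AG, 1.13 in TI and 1.18 in TIM, with all tumor libraries above AG. The ratio of miR-342-3p to miR-142a-3p had a median of 0.640 in AG, 11.9 in TI and 7.35 in TIM, again with no overlap. These 4 tests reached the smallest p allowed and an adjusted p of 0.075. The ratio of miR-223-3p to miR-142a-3p differed between groups by less than the spread between libraries, with medians of 0.444 in AG, 0.527 in TI and 0.448 in TIM. Its difference in mean log2 ratio was -0.14 in TI (exact permutation test, two-sided p = 0.833) and -0.07 in TIM (exact permutation test, two-sided p = 0.873). The ratio of miR-155-5p to miR-142a-3p had medians of 0.248, 0.280 and 0.247 in AG, TI and TIM. No ratio passed between TIM and TI.

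**Figure D3:**
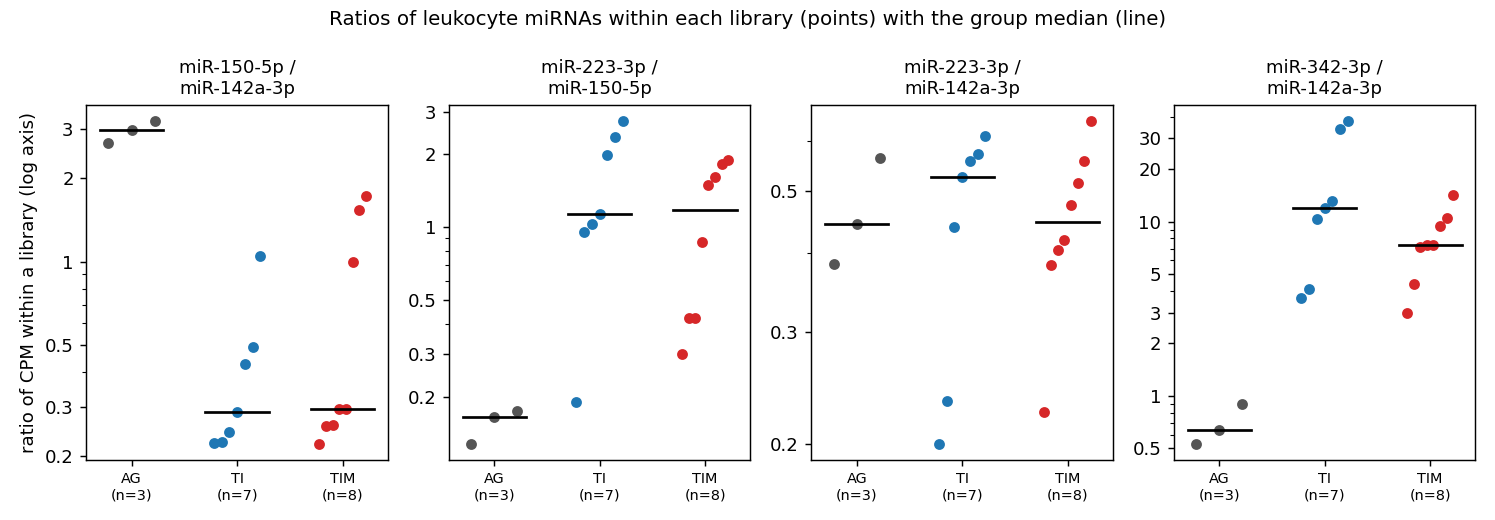
Ratios of CPM within a library (vertical log axis) for 4 pairs of leukocyte miRNAs in AG (n = 3), TI (n = 7) and TIM (n = 8), with points for libraries and lines for group medians. For miR-150-5p to miR-142a-3p all AG libraries lie at 2.68 or more and all tumors at 1.72 or less, whereas the medians of miR-223-3p to miR-142a-3p lie between 0.444 and 0.527.

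Levels spread over a wide range within the tumor groups, which also hold more libraries than AG. The highest library was 8.42-fold over the lowest for miR-142a-3p and 23.5-fold for miR-150-5p in TI, compared with 1.78-fold and 1.65-fold in AG and 2.85-fold and 6.47-fold in TIM. Among the TI libraries, library 6 had the lowest value for 4 members, libraries 2 and 7 each had the highest for 3 members, and library 5 had the highest for the other 2, miR-223-3p and miR-146b-5p.

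Within TI, libraries with more miR-142a-3p also had more of several other members. On log2(CPM + 1), the Pearson correlation over the 7 libraries was 0.97 for miR-155-5p (exact permutation p = 0.0008, adjusted over 18 relations p = 0.0143, Spearman rho 0.96) and 0.84 for miR-150-5p (exact permutation p = 0.0048, adjusted p = 0.0429, Spearman rho 0.93). For miR-142a-5p it was 0.93 (exact permutation, adjusted p = 0.05, not below the threshold) and for miR-223-3p 0.83 (exact permutation, adjusted p = 0.109). The rank correlations did not pass after adjustment, with the smallest adjusted p = 0.05 (exact permutation) for miR-155-5p. Without the 2 libraries farthest from the median, r was 0.99 for miR-155-5p and 0.92 for miR-150-5p over 5 libraries. miR-146b-5p gave 0.64, miR-146a-5p 0.23 and miR-342-3p 0.11, none of which passed. The 18 relations also held 2 miRNAs outside the list, the erythroid miR-451a and the endothelial miR-126a-3p. Both gave 0.70 in TI (exact permutation, adjusted p = 0.228), above these last members, so the relation was not particular to leukocyte miRNAs. When any single TI library was left out, r stayed between 0.96 and 0.98 for miR-155-5p and between 0.81 and 0.91 for miR-150-5p, but neither passed (adjusted p = 0.05 to 0.10 and 0.075 to 0.138 by exact permutation over 6 libraries). The smallest p that the test allows is larger with 6 libraries than with 7. The lost calls therefore cannot show that the relations were weaker. The values of a library share its scaling. With totals that omit miR-148a-3p and have no TMM factor, r stayed at 0.96 and 0.83 for miR-155-5p and miR-150-5p, but neither passed after adjustment.

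Within TIM no relation passed. The Pearson correlation with miR-142a-3p over the 8 libraries was 0.57 for miR-223-3p, 0.53 for miR-142a-5p, -0.08 for miR-150-5p and -0.36 for miR-155-5p. The erythroid miR-451a gave 0.67, more than any member, and the endothelial miR-126a-3p gave -0.49 (exact permutation, adjusted p = 0.228 and 0.381). Of the 7 other members, 3 had a positive r in TIM and 7 in TI. Whether the relations differ between the tumor types was not tested.

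**Figure D4:**
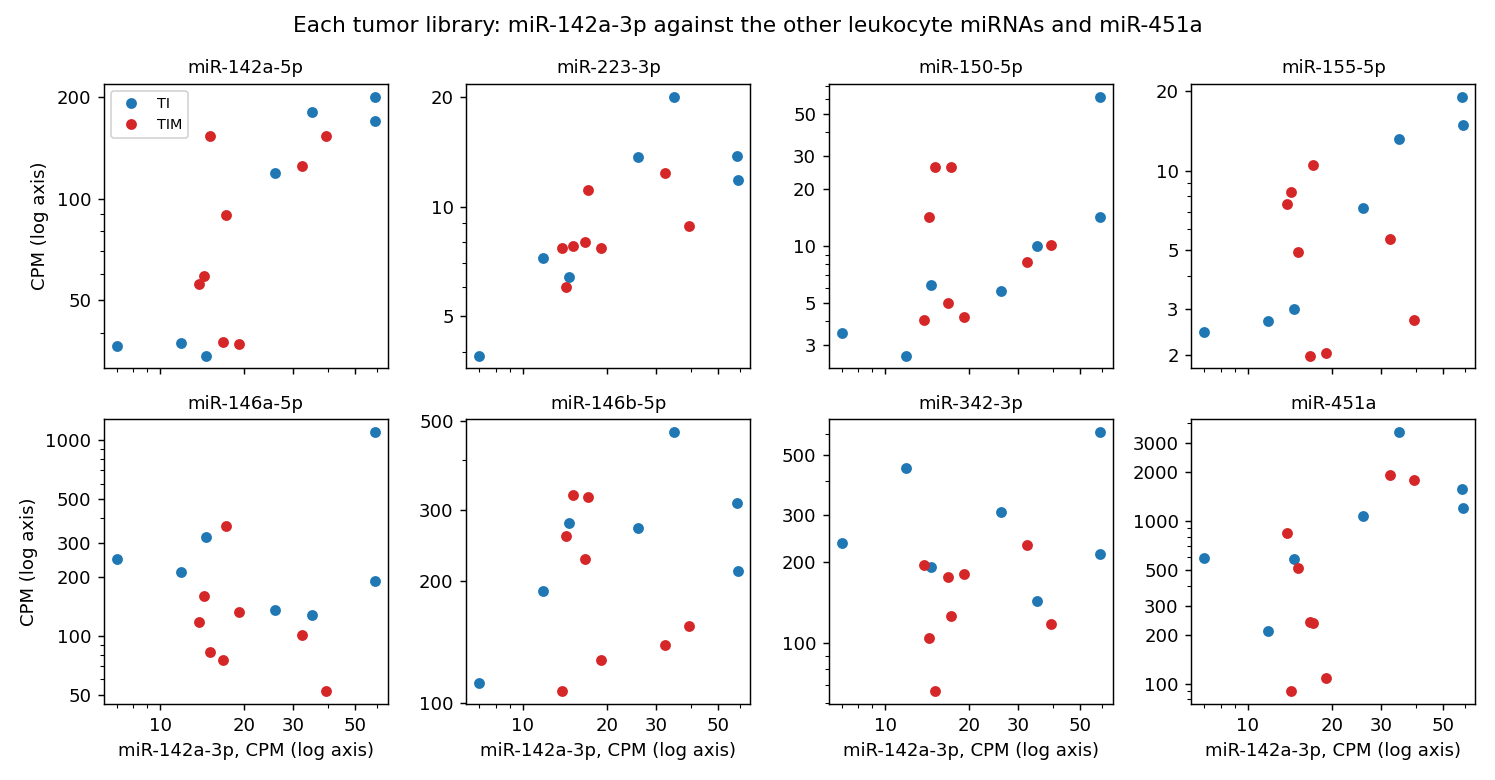
Level of miR-142a-3p (horizontal log axis, CPM) against that of the 7 other leukocyte miRNAs and of miR-451a (vertical log axes, CPM), with 1 point per tumor library of TI (n = 7) and TIM (n = 8). In TI the points of miR-155-5p rise with miR-142a-3p (r = 0.97), while in TIM they do not (r = -0.36).

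Markers of other cell types were compared in the same libraries. Of 7 other miRNAs of macrophages and myeloid cells, 6 were tested, and 2 were lower in TI and 3 in TIM, beside the backgrounds of 29.3% and 25.9% lower. Those in TI are the arms of 1 hairpin, miR-511-3p and miR-511-5p, and miR-21a-3p joins them in TIM (adjusted p = 0.0423 from limma). miR-21a-3p was at 30.6 CPM in AG library 1, but at 2.61 and 3.75 CPM in AG libraries 2 and 3. In TIM it was at 1.18 to 3.81 CPM, with only 5 of 8 libraries below all AG libraries. miR-511-3p is made from an intron of the macrophage mannose receptor gene. It was at 1.29, 1.68 and 2.17 CPM in AG and had medians of 0.302 CPM in TI and 0.313 CPM in TIM. Its log2 fold changes were -0.86 and -0.98 (adjusted p = 0.0059 and 0.0021 from limma). Among tumors only TI library 5 (1.34 CPM) and TIM library 2 (1.08 CPM) reached 1 CPM. It thus passed the filter only through AG, where it was high. Its calls, which the counts above include, are therefore no further reading. miR-21a-5p, an abundant miRNA of myeloid and many other cells, had medians of 68786, 62097 and 47673 CPM in AG, TI and TIM (adjusted p = 0.211 and 0.228 from limma). miR-652-3p had medians of 403, 215 and 584 CPM in AG, TI and TIM, with 5 of 7 TI libraries below and 5 of 8 TIM libraries above all AG libraries. Its log2 fold changes were -0.50 and 0.36 (adjusted p = 0.335 and 0.490 from limma), and 0.86 for TIM against TI (adjusted p = 0.104 from limma). The summed level of this list, nearly all of it miR-21a-5p (at least 58691, 9898 and 25892 CPM in AG, TI and TIM), was 59109 to 121982 CPM in AG, 10422 to 107238 CPM in TI and 26651 to 70497 CPM in TIM.

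Erythroid miRNAs, a measure of red blood cells left in the tissue, were not called. Of 7, 6 were tested and 0 passed in either tumor type, beside 55.8% and 51.4% of all tested miRNAs in TI and TIM. A negative log2 fold change was found for 5 of 6 in TI (median -0.33) and 6 of 6 in TIM (median -1.08). The lowest in TI was that of miR-486a-3p (-1.22, adjusted p = 0.0598 from limma). The medians of the leukocyte members were -1.04 and -1.40. A p above the threshold does not show that the erythroid levels were equal. miR-451a was at 482.9, 888.7 and 1736 CPM in AG, at 210.2 to 3513 CPM in TI and at 89.6 to 1926 CPM in TIM, with log2 fold changes of 0.01 and -1.14 (adjusted p = 0.995 and 0.303 from limma). The summed level of the list was 908 to 3016 CPM in AG, 464 to 5154 CPM in TI and 228 to 3177 CPM in TIM. The 2 endothelial miRNAs were both lower in both tumor types, beside 29.3% and 25.9% of all tested miRNAs lower in TI and TIM. miR-126a-3p, the endothelial miRNA of the Egfl7 gene, fell from 37016 to 44387 CPM in AG to 1621 to 6448 CPM in TI and 2314 to 8581 CPM in TIM (limma log2 fold changes -3.63 and -3.18, adjusted p = 3.3e-06 and 1.3e-05). The sum of the endothelial list was 38529 to 46092 CPM in AG and at most 8943 CPM in any tumor. Of 5 miRNAs of smooth muscle and stroma, 4 were lower in TI and 4 in TIM, with a summed level of 124324 to 210988 CPM in AG, 16134 to 171667 CPM in TI and 16240 to 101974 CPM in TIM. Of 5 neuronal and neuroendocrine miRNAs, 3 were higher in each tumor type and 0 were lower, beside 26.4% and 25.5% of all tested miRNAs higher. No miRNA of these lists was at 0 in a whole group. The part of these cell types in the changes of the leukocyte miRNAs was not tested.

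The miRNAs most like miR-142a-3p across all 18 libraries were searched among 399 others with a mean of at least 10 CPM, after each group's mean was subtracted. The highest Pearson correlations were those of miR-21a-5p (0.88), miR-423-5p (0.82), miR-144-5p (0.73), miR-410-5p (0.70) and miR-486a-5p (0.69) among miRNAs of other hairpins. Of the members, miR-142a-5p ranked 3 (0.80), miR-223-3p ranked 4 (0.78) and miR-150-5p ranked 22 (0.57), while miR-146b-5p, miR-342-3p and miR-146a-5p ranked 121, 154 and 194. miR-155-5p has a mean under 10 CPM and was not compared. These values are a description over libraries that share their scaling, and miR-144-5p and miR-486a-5p belong to the erythroid list.

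The fold changes also depended on how the libraries were scaled. Without the TMM factor the median log2 fold change over the tested miRNAs shifted by -0.13 in TI, 0.23 in TIM and 0.42 in TIM against TI. Of all calls, those of higher miRNAs then made up 42.7%, 59.4% and 89.0%, beside 47.4%, 49.6% and 65.8% with it. With totals that omit miR-148a-3p, the median shifted by 0.32 in TI and 0.35 in TIM, and 59.7% and 66.4% of calls were of higher miRNAs. This scaling also leaves out the TMM factor, so its results are not those of omitting miR-148a-3p alone. Under this scaling 2 members passed in TI, miR-150-5p and miR-342-3p, and 3 in TIM, with miR-223-3p added, while miR-142a-5p had an adjusted p of 0.0884 in TI and 0.0672 in TIM. In all 10 alternative settings miR-150-5p was lower and miR-342-3p higher than in AG in both tumor types, and both passed. Between TIM and TI, 5 of the 7 negative log2 fold changes turned positive without the TMM factor, and those of miR-146a-5p and miR-342-3p were nearer to 0, at -0.56 and -0.41. This scaling shifts all miRNAs, and relative to the median of the tested miRNAs the 5 stayed negative, between -0.47 and -0.10.

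**Figure D5:**
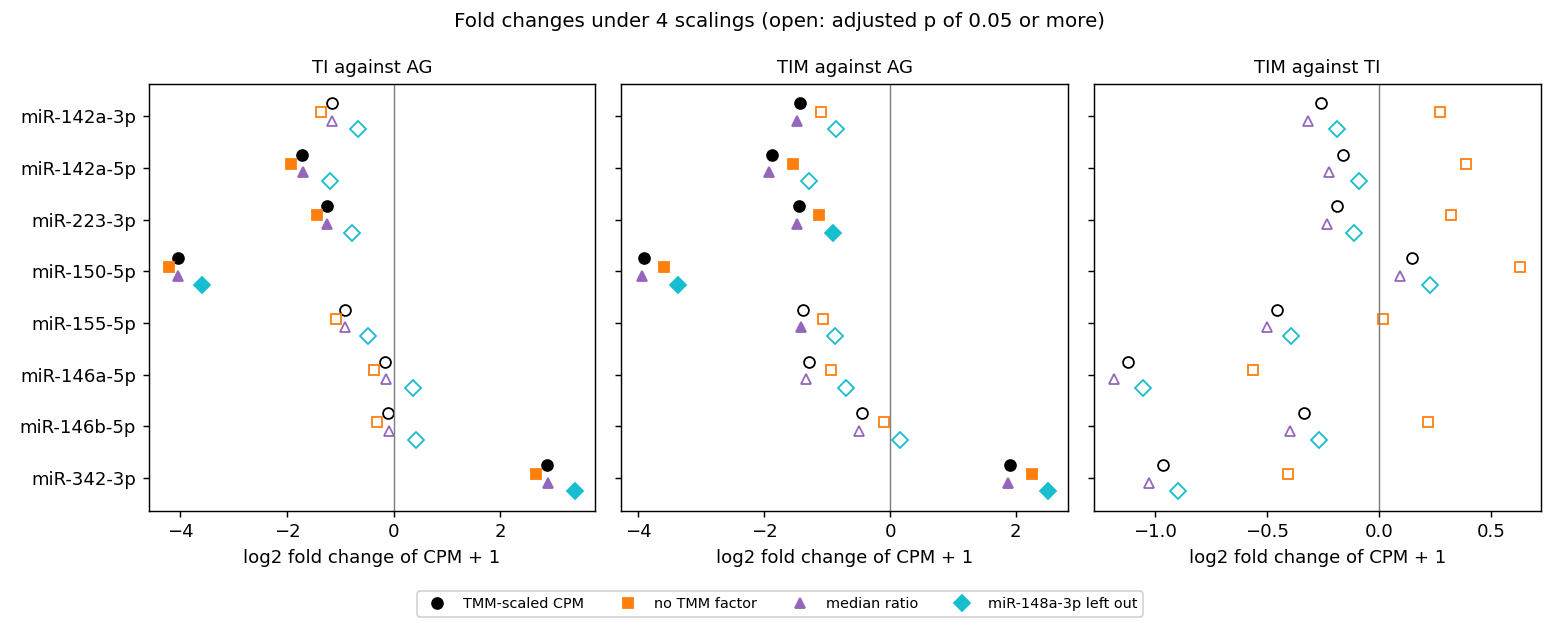
Log2 fold change of CPM + 1 (horizontal axis) of the 8 leukocyte miRNAs under 4 scalings of the libraries, in 1 panel per comparison, with open symbols for an adjusted p of 0.05 or more. miR-150-5p and miR-342-3p keep their side of 0 and filled symbols against AG under all 4, and in TIM against TI all symbols are open.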

How the data were processed

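Per the labels, small RNA was extracted with TRIzol from about 30 mg of tissue, and the authors trimmed reads with cutadapt 2.8, aligned them with Bowtie2 2.3.5.1 to mm10, counted them with featureCounts 2.0.0 and normalized them with edgeR 3.40. The treatment of reads with several matches is not given in the sources used here. The deposited values are a signal per mature miRNA and library, the CPM computed by the authors on totals multiplied by TMM factors between 0.700 and 1.85. The authors also deposited 9 columns of their own comparisons, with log2 fold changes, p-values and FDR, which were not used. The unit CPM had been assumed before the table was seen, and the same test was kept.

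Of all values, 100% were whole multiples of 1 read (tolerance 0.0001 reads), and the recovered reads served for edgeR 4.0.16 and DESeq2 1.42.0 as alternatives. The main test was limma 3.58.1 (R 4.3.3; lmFit, then eBayes allowing a trend) on log2(CPM + 1) with all 18 libraries in 1 model, Benjamini-Hochberg adjustment over all 726 miRNAs and a threshold of 0.05. A fold change on this scale understates the change of low miRNAs. Ratios and relations were tested by exact permutation over every arrangement of the libraries (two-sided, both with the smaller tail doubled). These tests used numpy 2.4.6 and scipy 1.17.1 under Python 3.11.15. The fits were tested on simulated data. Of 52 pairs of libraries of a group, 0 were identical or within sampling noise.

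The members, the marker lists and the tests were chosen with earlier results of these data known. Named are the members, the other arms of their hairpins, the marker lists, miR-148a-3p and the 5 other miRNAs most like miR-142a-3p. Alternatives were pseudocounts of 0.1 and 5, no filter or at least 10 CPM, other scalings, other tools, only the compared groups in the model, and each library left out in turn. Totals that omit miR-148a-3p were used without the TMM factor.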

Additional observations from a re-analysis of the deposited data

Results flagged for a closer look

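Of 34 groups of values tested for a library far from the others (the members and their ratios in TI and TIM), 2 were flagged, beside 1.7 that chance gives. In TI, miR-146a-5p had a high value of 1096 CPM in library 2, and its gap to the next library took 0.572 of the whole range. In TI, the ratio of miR-223-3p to miR-150-5p was low in library 7, at 0.191, just above the highest AG value of 0.176, and its gap took 0.606 of the range. Library 7 also had the highest miR-150-5p of all tumors, at 61.8 CPM.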

How the results depend on the processing

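No paired analysis was possible because column names give only the group. Of the settings other than leaving out a library, the number of members called changed by over 1.5 times with totals that omit miR-148a-3p (2 in TI, 3 in TIM) and with DESeq2 between TIM and TI (2). With a library left out, the number of members called ranged from 3 to 5 for TI, from 3 to 7 for TIM (3 without AG library 1 or 3) and from 0 to 1 for TIM against TI (1 without TI library 5). Of all miRNAs tested between TIM and TI, 38 passed in limma, 3 with edgeR, 123 with DESeq2, 155 without the TMM factor and 21 without a filter.

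Of the 27 ratios, 0 passed, and 6 did with a p from the absolute difference (adjusted p below 0.05), while none passed with any single library left out. Leaving out a library raises the smallest p that a ratio test against AG allows. For these ratios the group sizes thus largely set that result. Of the 18 relations, 2 passed, 0 with totals that omit miR-148a-3p, 0 without the 2 farthest libraries, and 0 to 2 with a library left out. With fewer libraries the exact test has fewer arrangements, which makes passing after adjustment hardly possible in TI. These counts thus do not tell how stable the relations were.

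Signs changed only in results that did not pass. Against AG, these were miR-146a-5p in TI (0.36 with totals that omit miR-148a-3p, 0.26 with edgeR, 0.22 with DESeq2), miR-146b-5p in TI (0.42 with totals that omit miR-148a-3p, 0.00050 with edgeR) and in TIM (0.15 with totals that omit miR-148a-3p). Between TIM and TI without the TMM factor, they were miR-142a-3p (0.27), miR-142a-5p (0.39), miR-223-3p (0.32), miR-155-5p (0.018) and miR-146b-5p (0.22), and with edgeR miR-150-5p (-0.29). With medians in place of means, the log2 ratio changed sign for miR-146a-5p to miR-146b-5p in TI (0.27), for miR-223-3p to miR-142a-3p for TI (0.25), for TIM (0.0079) and for TIM against TI (-0.24), and for miR-223-3p to miR-150-5p between TIM and TI (0.014). With a pseudocount of 1, so did miR-155-5p to miR-142a-3p in TIM (0.052). The correlation with miR-142a-3p in TIM changed sign for miR-142a-5p (-0.35), miR-146a-5p (0.20) and miR-451a (-0.49) without the 2 farthest libraries, for miR-146a-5p (0.22), miR-150-5p (0.027) and miR-155-5p (0.15) without the TMM factor, and for miR-146a-5p (0.015) and miR-155-5p (0.0064) with totals that omit miR-148a-3p. The cause was not tested.

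With a library left out, signs changed for miR-146a-5p in TI (-0.52 to 0.12), miR-146b-5p in TI (-0.26 to 0.081), and between TIM and TI for miR-142a-5p (-0.38 to 0.040) and miR-150-5p (-0.093 to 0.59). Among ratios they changed in TI for miR-146a-5p to miR-146b-5p (-0.35 to 0.27) and miR-223-3p to miR-142a-3p (-0.27 to 0.032), in TIM for miR-146a-5p (-0.080 to 0.49), miR-155-5p (-0.32 to 0.13) and miR-223-3p (-0.20 to 0.076), each to miR-142a-3p, and between TIM and TI for miR-142a-5p (-0.096 to 0.24), miR-146b-5p (-0.33 to 0.11) and miR-223-3p (-0.11 to 0.21), each to miR-142a-3p. Among correlations with miR-142a-3p they changed for miR-146a-5p (-0.59 to 0.36) and miR-342-3p (-0.38 to 0.32) in TI and for miR-150-5p (-0.28 to 0.080) and miR-342-3p (-0.026 to 0.54) in TIM.

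The precision was limited by the 3 AG libraries and by the spread between tumors, and each member had at least 27 reads in each library. How reads that match both miR-146 miRNAs were counted is not given in the sources used here.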

Other observations

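The levels of miR-142a-3p and miR-342-3p were also set against each library's reads on miRNAs and its share of miR-148a-3p within TI and within TIM, 8 relations chosen after the data were seen. None passed after adjustment. The strongest was that of miR-342-3p with the reads in TIM (r = -0.76, exact permutation p = 0.0219, adjusted p = 0.175, Spearman rho -0.81 with p = 0.0218 and adjusted p = 0.174, n = 8, r = -0.65 without the 2 farthest libraries). An antisense miRNA at the Mir142 locus, miR-142b, was at most 0.0604 CPM in any library.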
